A study of Homo sapiens with 6 samples.

Results

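The genes described here belong by symbol to families that remove introns from pre-mRNA or regulate that step, though some LSM members act in other processes. The families are the SR proteins (SRSF), the heterogeneous nuclear ribonucleoproteins (HNRNP), the proteins of the small nuclear ribonucleoproteins or snRNPs (SNRP, SF3A and SF3B), the LSm proteins, and the U2AF subunits. They were taken by symbol: every probe set whose platform annotation gives 1 gene symbol that begins with SRSF, HNRNP, SNRP, SF3A, SF3B, U2AF, or LSM followed by a digit. The rule took 198 of 54613 probe sets and 69 of 19775 genes. Of these, 182 probe sets and 67 genes were bright enough to be tested, among 32768 probe sets and 13644 genes in all. The 2 genes without a tested probe set were SRSF12 and SNRPF-DT, and 21 of the 67 had 1 tested probe set. SRSF2, SRSF9 and HNRNPH2 had no probe set with 1 symbol, so they are not among the 69 and nothing here describes them. Because SNRPF-DT, HNRNPD-DT and HNRNPA3P1 fit the same rule, the 69 also hold a pair of divergent non-coding transcripts and a pseudogene. Another 25 probe sets carried several symbols, 1 of them fitting the rule, and are not analysed here.

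RNA was measured in the human cell line BCWM1, an established model of Waldenström macroglobulinemia, in which B lymphocytes and plasma cells that secrete IgM build up. Cells labelled as mutated (3 samples) were compared with parental cells of the line (3 samples), and the series title ties the mutation to C1013G in CXCR4, the receptor of the chemokine CXCL12. How the mutated cells were made, whether they are 1 clone, and whether the parental cells carry a control vector cannot be read from the sources used here. No label says that samples of a group came from separate cultures. A p-value therefore sets a difference between groups only against the spread seen among these arrays, and that spread may be technical.

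Splicing begins when the U1 snRNP binds the start of an intron and U2AF marks its end, after which the U2 snRNP, carrying the SF3A and SF3B complexes, settles on the branch point. SR proteins bind exons and favour their use, while many hnRNPs bind introns or exons and oppose it, so that the balance of both groups shifts which exons enter an mRNA. Most snRNPs of the spliceosome are built on a ring of Sm proteins, U6 on a ring of LSm proteins, and a related LSm ring promotes mRNA decay in the cytoplasm. Mutations of SF3B1, SRSF2 and U2AF1 recur in blood cancers, and B cells use regulated splicing to switch immunoglobulin and CD45 isoforms.

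The 6 arrays had median intensities of 31.42, 30.93 and 31.83 in mutated cells and 29.13, 28.46 and 28.99 in parental cells. Across tested probe sets, Pearson's r was 0.994 to 0.996 between arrays of a group and 0.967 to 0.970 between arrays of different groups. Of the 9 B cell markers, 8 had a probe set with 1 symbol, and those 8 were above the highest array median in both groups. Summed, they were 27654 to 29028 in mutated cells against 30192 to 31499 in parental cells, with CD79A and CD79B higher and CD22, IGHM and CD38 lower. T cell markers reached at most 51.6 in mutated cells. Summed stromal markers were 424 to 512 in mutated cells against 681 to 774 in parental cells, nearly all of it COL1A1, with COL1A2, COL3A1 and PDGFRB between 1 and 17.6. Summed natural killer cell markers were 159 to 187 in mutated cells against 187 to 247 in parental cells, with PRF1 lower. Their part in the results on splicing factors was not tested.

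A gene was represented by its brightest tested probe set, and it was said to have risen or fallen where limma gave a Benjamini-Hochberg adjusted p under 0.05 over all tested probe sets. By that measure 10 of the 67 splicing factor genes rose in mutated cells and 13 fell, and 44 did not pass. The shares were 14.9% and 19.4%, against 30.1% of all tested genes that rose and 18.9% that fell. A smaller share of splicing factors than of genes at large was called higher, and a share near that background was called lower. Their median log2 change was −0.0099, against 0.038 over all tested genes. In bulk RNA, fewer cells of a type and less RNA per cell cannot be told apart.

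By family, the calls were divided as follows. No SR protein gene and no HNRNP gene rose by its brightest probe set, while 3 of 9 SRSF genes and 6 of 19 HNRNP genes fell. At an unadjusted p under 0.05 limma also gave 0 higher in either family, with 4 SRSF and 7 HNRNP genes lower. Over all tested genes 33.6% were higher and 22.3% lower at that unadjusted threshold, and 30.1% rose and 18.9% fell at the adjusted one. In the LSM family 5 of 13 genes rose and 0 fell, and 6 were higher and 2 lower at an unadjusted p under 0.05. The SNRP family was divided, with 3 of 12 higher and 2 lower, as was the SF3 group, with 1 of 9 higher and 2 lower. None of the 3 U2AF genes passed in either direction, and 0 had an unadjusted p under 0.05. Family medians were −0.12 for SRSF, −0.077 for HNRNP, 0.081 for SNRP, 0.020 for SF3, 0.12 for LSM and −0.079 for U2AF.

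The scaling between arrays set how many genes were called each way. The calls divided into 10 that rose and 13 that fell as deposited, 11 and 17 after quantile normalization, and 5 and 23 after centring each array on its median. Of all calls over all tested genes, the part that was higher came to 61.5% as deposited, 49.4% after quantile normalization and 46.1% after median centring. Among the splicing factors it was 43.5%, 39.3% and 17.9%. SRSF and HNRNP medians were below 0 and LSM medians above 0 under all 3 scalings. The SNRP median was 0.046 after quantile normalization and 0.0020, close to 0, after median centring. The SF3 median was −0.022 after quantile normalization and −0.060 after median centring. The number of SRSF genes that fell was 3 as deposited, 4 after quantile normalization and 6 after centring, and that of HNRNP genes 6, 6 and 10. The split also turned with the choice of probe sets. Without probe sets that carry the suffix _s_at or _x_at, 9 of 54 splicing factor genes rose and 7 fell. When a gene's probe sets were averaged, 15 of 67 rose and 12 fell. The part of these calls that was higher came to 56.3% and 55.6%, against 63.8% and 64.3% over all tested genes under the same choices. Under them the SRSF median was −0.0023 and −0.072, and the HNRNP median −0.025 and −0.064.

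Values were also compared without a model. In 15 of the 67 genes all 3 mutated values lay above all 3 parental values, and in 24 all 3 lay below. Over all tested genes those shares were 36.3% and 24.8%. Among HNRNP genes 11 of 19 lay wholly below and 1 above, and among SRSF genes 6 of 9 lay below and 1 above. Among LSM genes 7 of 13 lay above and 2 below.

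**Figure D1:**
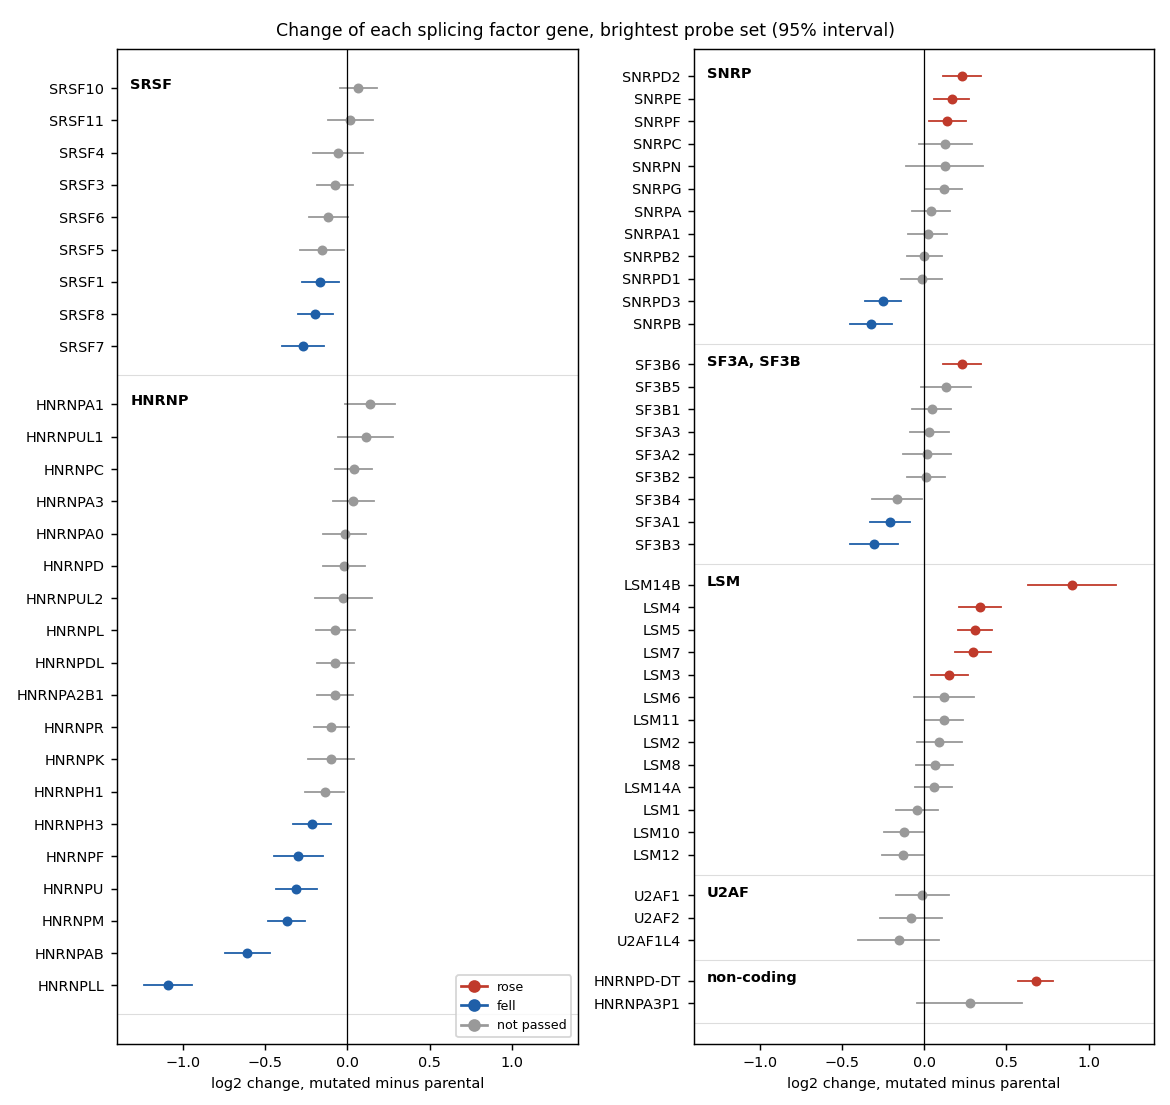
Log2 change (mutated minus parental, of intensity + 16) of each of the 67 tested splicing factor genes by its brightest probe set, ordered within families; bars are 95% intervals, and colour gives the call. HNRNPLL, at −1.09, is the lowest point and LSM14B, at 0.90, the highest, while no SRSF or HNRNP gene is coloured as risen.

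The largest change in the set was the fall of HNRNPLL, an RNA-binding protein known for directing the alternative splicing of CD45 (PTPRC) in lymphocytes. Its brightest probe set, 225386_s_at, read 1042, 998 and 919 in mutated cells, against 2132, 2154 and 2063 in parental cells. The mean signal fell by 53.4% in mutated cells, a log2 change of −1.09 (SE, 0.061; Benjamini-Hochberg adjusted p = 2.8e-05 in limma). The 3 other probe sets of the gene lay in the same direction, each with groups that did not overlap. Probe set 225385_s_at read 157, 168 and 174 in mutated cells, against 393, 392 and 380.1 in parental cells, a log2 change of −1.15 (SE, 0.054; Benjamini-Hochberg adjusted p = 1.3e-05 in limma). Probe set 236104_at read 72.2, 84.5 and 68.5 in mutated cells, against 176, 157 and 152 in parental cells, a log2 change of −0.97 (SE, 0.086; Benjamini-Hochberg adjusted p = 0.00022 in limma). All 4 probe sets therefore passed with values far outside the spread of the 3 samples of either group. The dimmest, 1554453_at, read 11.3, 15.7 and 14.2 in mutated cells, against 34.7, 39.2 and 33.0 in parental cells, and its log2 change of −0.80 (adjusted p = 0.00030) understates the ratio because 16 is added to each intensity. The change of the brightest probe set lay between −1.13 and −1.04 when each sample was left out in turn.

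**Figure D2:**
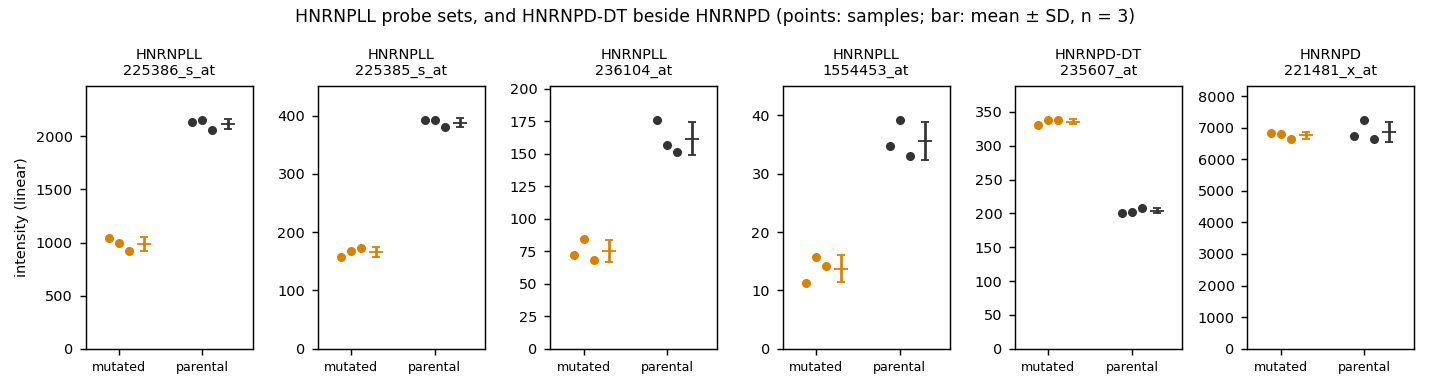
Intensity on a linear scale in each sample (points; bar, mean ± SD, n = 3) for the 4 HNRNPLL probe sets, for HNRNPD-DT and for the brightest HNRNPD probe set, with mutated cells left of parental cells in each panel. Every HNRNPLL panel and the HNRNPD-DT panel show groups that do not overlap, in opposite directions, and the HNRNPD panel shows overlapping groups.

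The promoter of HNRNPLL is shown because the gene changed most and on every probe set. It is given as the RefSeq window of GRCh38.p14 from 250 bases before to 50 after the gene start, 5′ to 3′ on the gene's own strand, at chr2:38602879-38603178, minus strand. Capitals mark matches on either strand to 6 short motifs: the ETS site (CCGGAAG), the E-box bound by MYC and its relatives (CACGTG), the GC box (GGGCGG), the CCAAT box (those letters), the TATA box (TATAAA) and the NRF1 site.
HNRNPLL promoter: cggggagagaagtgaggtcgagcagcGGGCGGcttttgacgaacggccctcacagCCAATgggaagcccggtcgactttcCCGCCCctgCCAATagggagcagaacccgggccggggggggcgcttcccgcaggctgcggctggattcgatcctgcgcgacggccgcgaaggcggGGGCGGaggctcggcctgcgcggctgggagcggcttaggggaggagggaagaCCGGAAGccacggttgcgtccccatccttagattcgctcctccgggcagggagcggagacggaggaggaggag
This window holds the GC box 3 times, the CCAAT box 2 times and the ETS site 1 time. Of all genes with such windows, 48.3% hold a GC box, 39.7% a CCAAT box and 12.2% an ETS site.

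HNRNPAB followed, a nuclear RNA-binding protein that also travels with mRNA to the cytoplasm, with a single tested probe set (201277_s_at). It read 2860, 2838 and 2629 in mutated cells, against 4198, 4403 and 4122 in parental cells. The mean signal fell by 34.6%, a log2 change of −0.61 (SE, 0.057; Benjamini-Hochberg adjusted p = 0.00026 in limma). HNRNPM, a repressor and activator of alternative exons known from epithelial splicing programmes, read 4649, 4524 and 4629 in mutated cells, against 5902, 6132 and 5816 in parental cells on its brightest probe set, 1555844_s_at. Its log2 change was −0.37 (SE, 0.047; Benjamini-Hochberg adjusted p = 0.0010 in limma). HNRNPU, the scaffold-attachment protein that binds both chromatin and pre-mRNA, read 5679, 5270 and 5353 in mutated cells, against 6667, 6947 and 6614 in parental cells on 200594_x_at, a log2 change of −0.31 (SE, 0.053; Benjamini-Hochberg adjusted p = 0.0034 in limma). In these 3 genes the highest mutated sample lay below the lowest parental one. When the probe sets of a gene were averaged, HNRNPM (−0.16, adjusted p = 0.13) and HNRNPU (−0.13, adjusted p = 0.097) did not pass.

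HNRNPF, which binds runs of G near splice sites, had 1 tested probe set (201376_s_at) and read 1630, 1558 and 1527 in mutated cells, against 2055, 1938 and 1819 in parental cells. Its log2 change was −0.30 (SE, 0.062; Benjamini-Hochberg adjusted p = 0.0080 in limma). Its close relative HNRNPH3 was the sixth HNRNP gene to fall, at −0.22 (SE, 0.048; Benjamini-Hochberg adjusted p = 0.010 in limma) on its brightest probe set. It lies outside the rule for named genes and was chosen after its values were seen. The other 3 probe sets of HNRNPH3 did not pass, with log2 changes between −0.093 and −0.077. HNRNPH1, of the same subfamily, had a log2 change of −0.14 (adjusted p = 0.059) on its brightest probe set and fell on another, at −0.41 (adjusted p = 0.0090).

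The other 12 HNRNP genes did not pass on their brightest probe set, with log2 changes between −0.10 and 0.14. They include the most studied members of the family. HNRNPA1, which opposes SR proteins at many exons, had 0.14 (95% interval −0.012 to 0.29). HNRNPA2B1 had −0.077 (95% interval −0.19 to 0.032), HNRNPC, which binds runs of U, had 0.037 (95% interval −0.074 to 0.15), and HNRNPK, which binds runs of C, had −0.10 (95% interval −0.24 to 0.039). None of these 4 intervals reaches as far from 0 as the fall of HNRNPM. Other probe sets of these genes did pass. Probe set 225932_s_at of HNRNPA2B1 fell, at −0.21 (limma, adjusted p = 0.015), as did 200097_s_at of HNRNPK, at −0.22 (limma, adjusted p = 0.0083). A dim probe set of HNRNPC, 235500_at, rose, at 0.34 (limma, adjusted p = 0.026). HNRNPL, the paralog of HNRNPLL, had −0.073 (95% interval −0.19 to 0.046) on its brightest probe set and −0.054 on its other one. The difference between these paralogs was not tested. The remaining 7 (HNRNPA0, HNRNPA3, HNRNPD, HNRNPDL, HNRNPR, HNRNPUL1 and HNRNPUL2) lay between −0.098 and 0.11. Over all 66 tested HNRNP probe sets, 17 fell and 7 rose (25.8% and 10.6%), against 16.6% and 30.9% of all tested probe sets. Those that rose belonged to HNRNPD with 3, and to HNRNPA0, HNRNPC, HNRNPR and HNRNPUL2 with 1 each.

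SR proteins carry RNA recognition motifs and a tail of arginine and serine repeats. SRSF7, which shuttles to the cytoplasm and links splicing to mRNA export, read 3896, 3839 and 3616 in mutated cells, against 4574, 4703 and 4420 in parental cells on its brightest probe set (214141_x_at). Its mean fell by 17.1%, a log2 change of −0.27 (SE, 0.054; Benjamini-Hochberg adjusted p = 0.0066 in limma). SRSF8, a relative of SRSF2, read 2143, 2166 and 2213 in mutated cells, against 2489, 2467 and 2520 in parental cells on 214789_x_at, a log2 change of −0.20 (SE, 0.045; Benjamini-Hochberg adjusted p = 0.012 in limma). SRSF1, the founding member of the family and a proto-oncogene, read 5268, 5225 and 5042 in mutated cells, against 5754, 5901 and 5766 in parental cells on 211784_s_at. Its log2 change was −0.16 (SE, 0.046; Benjamini-Hochberg adjusted p = 0.025 in limma). The groups did not overlap for any of the 3 genes. The call of SRSF1 was lost whichever of the 6 samples was left out (adjusted p 0.052 to 0.072). When the probe sets of a gene were averaged, SRSF1 (−0.089, adjusted p = 0.11) and SRSF8 (−0.023, adjusted p = 0.64) did not pass.

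The suffix _s_at marks probe sets that read more than 1 transcript, and _x_at those with probes that may also match other sequences. On probe sets with neither suffix, SRSF7 had −0.11 and SRSF8 −0.0023, and neither passed. The other 6 SRSF genes did not pass on their brightest probe set. SRSF5 had −0.16 (95% interval −0.29 to −0.022), SRSF6 −0.12, SRSF3 −0.074, SRSF4 −0.056, SRSF11 0.016 and SRSF10, which acts as a general repressor when dephosphorylated, 0.067. Over all 39 tested SRSF probe sets, 11 fell and 6 rose, against 16.6% and 30.9% of all tested probe sets. The 6 that rose belonged to 4 genes, namely SRSF1 and SRSF11 with 2 each, and SRSF3 and SRSF8 with 1 each.

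The Sm ring, which the U1, U2, U4 and U5 snRNPs share, was divided: of its 7 proteins 3 rose, 2 fell and 2 did not pass. The shares that rose and fell were 42.9% and 28.6%, against 30.1% and 18.9% of all tested genes. SNRPD2 read 8083, 8050 and 7878 in mutated cells, against 6647, 7052 and 6727 in parental cells on 200826_at, a log2 change of 0.23 (SE, 0.048; Benjamini-Hochberg adjusted p = 0.0077 in limma). SNRPE read 7847, 7785 and 7964 in mutated cells, against 6986, 7081 and 6922 in parental cells on 203316_s_at, a log2 change of 0.17 (SE, 0.044; Benjamini-Hochberg adjusted p = 0.019 in limma). SNRPF read 4535, 4369 and 4482 in mutated cells, against 3995, 4159 and 3971 in parental cells on 203832_at, a log2 change of 0.14 (SE, 0.047; Benjamini-Hochberg adjusted p = 0.046 in limma). These differences came to 17.6%, 12.4% and 10.4% of the parental mean. SNRPB, which codes for the B and B′ proteins of the ring, lay the other way and read 3293, 3133 and 3050 in mutated cells, against 3949, 4083 and 3832 in parental cells on 213175_s_at, a log2 change of −0.32 (SE, 0.054; Benjamini-Hochberg adjusted p = 0.0031 in limma). SNRPD3 read 2741, 2766 and 2631 in mutated cells, against 3195, 3261 and 3225 in parental cells on 202567_at, a log2 change of −0.25 (SE, 0.047; Benjamini-Hochberg adjusted p = 0.0051 in limma). In all 5 genes the mutated and parental values did not overlap. SNRPG had 0.12 (adjusted p = 0.072) and SNRPD1 −0.015 (adjusted p = 0.84). The other tested probe set of SNRPD1, a dimmer one, fell, with a log2 change of −0.28.

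Of the Sm ring calls, that of SNRPF was lost whichever sample was left out (adjusted p 0.058 to 0.13), and that of SNRPE was lost without mutated 1, mutated 2, parental 1 or parental 3 (up to 0.060), as it was when its probe sets were averaged (adjusted p = 0.15). Without any 1 of those 4 samples the count of SNRP genes that rose was 1. No SNRP gene rose after median centring, where SNRPD2 had an adjusted p of 0.056, while SNRPB and SNRPD3 still fell. On the probe set of SNRPB without the suffix _s_at or _x_at the log2 change was −0.12 (adjusted p = 0.12). The 4 proteins specific to U1 or U2 (SNRPA and SNRPC of U1, SNRPA1 and SNRPB2 of U2) had brightest log2 changes between 0.00062 and 0.13, and 0 of them passed or had an unadjusted p under 0.05 with limma. SNRPN, the imprinted relative of SNRPB, had 0.13 (95% interval −0.11 to 0.36) on its 1 probe set with a single symbol.

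SF3A and SF3B hold the U2 snRNP at the branch point. SF3B6, a small subunit that can be crosslinked to the branch-point adenosine, read 5370, 5060 and 5281 in mutated cells, against 4361, 4539 and 4484 in parental cells on 223416_at, a log2 change of 0.23 (SE, 0.049; Benjamini-Hochberg adjusted p = 0.0088 in limma). SF3B3, a large scaffold of the complex, read 655, 688 and 607 in mutated cells, against 816, 781 and 817 in parental cells on 200687_s_at, a log2 change of −0.30 (SE, 0.061; Benjamini-Hochberg adjusted p = 0.0069 in limma). SF3A1 read 1665, 1647 and 1745 in mutated cells, against 1918, 2012 and 1905 in parental cells on 201356_at, a log2 change of −0.20 (SE, 0.051; Benjamini-Hochberg adjusted p = 0.016 in limma). The groups did not overlap in these 3 genes. The call of SF3A1 was lost without mutated 1, mutated 2 or parental 2 (adjusted p up to 0.057), and without any 1 of these the count of SF3 genes that fell was 1. Without mutated 3 that count was 3, with 2 that rose. The other probe set of SF3B3 had the opposite sign, 0.18 (adjusted p = 0.16), and their average did not pass (−0.059, adjusted p = 0.48). After median centring SF3B6 had an adjusted p of 0.051. SF3B1, the subunit mutated in blood cancers, had 0.045 (95% interval −0.073 to 0.16) on its brightest probe set, SF3B2 0.011, SF3B4 −0.16 (adjusted p = 0.077), SF3B5 0.13, SF3A2 0.020 and SF3A3 0.033. The other tested probe set of SF3B2, a dimmer one, fell, with a log2 change of −0.40.

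Among the 13 LSM genes 5 rose (38.5%) and 0 fell by their brightest probe set, against 30.1% and 18.9% of all tested genes. LSM14B, an RNA granule protein of the RAP55 group that does not join the heptameric rings, read 179.7, 184 and 159 in mutated cells, against 103, 81.3 and 75.0 in parental cells on its brightest probe set, 219653_at. The mean was 2.02-fold that of parental cells, a log2 change of 0.90 (SE, 0.11; Benjamini-Hochberg adjusted p = 0.00086 in limma). Of the 7 proteins of the U6 ring, LSM2 to LSM8, 4 rose (57.1%) and 0 fell. At an unadjusted p under 0.05 in limma 4 were higher and 0 lower, against 33.6% and 22.3% of all tested genes. LSM4 read 1874, 2004 and 1833 in mutated cells, against 1522, 1489 and 1485 in parental cells on 202737_s_at, a log2 change of 0.34 (SE, 0.053; Benjamini-Hochberg adjusted p = 0.0023 in limma). LSM5 read 6487, 6562 and 6599 in mutated cells, against 5254, 5309 and 5283 in parental cells on 211747_s_at, a log2 change of 0.31 (SE, 0.043; Benjamini-Hochberg adjusted p = 0.0015 in limma). LSM7 read 4308, 4344 and 4359 in mutated cells, against 3588, 3566 and 3416 in parental cells on 204559_s_at, a log2 change of 0.30 (SE, 0.046; Benjamini-Hochberg adjusted p = 0.0023 in limma). In each of these 3 the lowest mutated value exceeded the highest parental one. LSM3 had the smallest log2 change of the 5 and read 3466, 3563 and 3431 in mutated cells, against 3061, 3229 and 3106 in parental cells on 202209_at, a log2 change of 0.15 (SE, 0.048; Benjamini-Hochberg adjusted p = 0.037 in limma). All 5 LSM genes that rose had groups that did not overlap.

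The remaining ring members did not pass: LSM2 had 0.093 (95% interval −0.045 to 0.23), LSM6 0.12 (95% interval −0.062 to 0.30) and LSM8 0.064 (95% interval −0.050 to 0.18) on their brightest probe sets. Of the 4 tested probe sets of LSM8, however, 2 rose, and the highest log2 change among the 4 was 0.40. LSM1, which replaces LSM8 in the cytoplasmic decay ring, had −0.043 (95% interval −0.17 to 0.087). LSM10 and LSM11, which belong to the U7 snRNP that processes histone mRNA, had −0.12 and 0.12. LSM14A, the paralog of LSM14B, had 0.060 and LSM12 −0.13. Another probe set of LSM14A, 212131_at, rose, at 0.17 (limma, adjusted p = 0.020), and a dimmer one, 222099_s_at, had −0.13 without passing. The call of LSM3 was lost in 5 of 6 fits that left out a sample, all but the one without parental 2 (adjusted p up to 0.11). LSM5 had 0.11 (adjusted p = 0.23) on its probe set with the plain suffix _at. LSM4, LSM5, LSM7 and LSM14B kept their calls under quantile normalization and median centring, and 2 LSM genes were called lower under each of them.

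The promoters of LSM7 and LSM5 are shown because these members of the ring rose together and their windows hold the rarest motif of the 6 and one more often found among these genes. The LSM7 window is at chr19:2328537-2328836 and the one of the 2 LSM5 windows printed at chr7:32490331-32490630, both on the minus strand of GRCh38.p14 and both from RefSeq, with the same limits and the same 6 motifs in capitals.
LSM7 promoter: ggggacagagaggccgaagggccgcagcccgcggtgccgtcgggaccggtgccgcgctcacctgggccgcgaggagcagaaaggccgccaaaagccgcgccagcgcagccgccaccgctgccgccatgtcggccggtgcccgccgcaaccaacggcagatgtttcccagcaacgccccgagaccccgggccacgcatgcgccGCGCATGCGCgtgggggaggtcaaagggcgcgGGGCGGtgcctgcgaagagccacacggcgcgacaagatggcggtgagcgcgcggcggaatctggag
LSM5 promoter: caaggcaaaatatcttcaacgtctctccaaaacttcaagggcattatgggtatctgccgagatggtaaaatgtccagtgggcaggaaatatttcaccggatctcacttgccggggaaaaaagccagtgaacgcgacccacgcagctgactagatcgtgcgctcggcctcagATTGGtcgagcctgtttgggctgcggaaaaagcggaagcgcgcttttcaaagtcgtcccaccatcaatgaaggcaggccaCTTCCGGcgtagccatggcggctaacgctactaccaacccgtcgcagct
LSM7 was the only 1 of the 62 splicing factor genes with a window to hold the NRF1 site, a share of 1.61%, against 1.52% of 27305 genes. The ETS site, which the LSM5 window holds on the opposite strand, stood in the windows of 21 of the 62 genes (33.9%), against 12.2% of all genes. Of the 10 genes that rose, 4 held it, as did 4 of the 12 that fell and 13 of the 38 that did not pass. A GC box stood in 44 of the 62 (71.0%) against 48.3%, a CCAAT box in 30 (48.4%) against 39.7%, an E-box in 7 (11.3%) against 8.77%, and a TATA box in 7 (11.3%) against 14.0%. The comparison is with all genes that have a window, whether or not they were tested here, and was not made among bright genes alone. A gene can have several windows, with 87 for the 62 genes and 35116 for the 27305, and more windows give more room for a match. These are matches of letters in a window, not shown binding sites.

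U2AF2, the large subunit that binds the pyrimidine run before the end of an intron, had a log2 change of −0.079 (95% interval −0.27 to 0.11). U2AF1, the small subunit that reads the last bases of the intron, had −0.0099 (95% interval −0.17 to 0.15) on its brightest probe set, while 1 of its other 2 tested probe sets rose, at 0.26 (adjusted p = 0.016). U2AF1L4, a relative of the small subunit, had −0.15 (95% interval −0.40 to 0.090).

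Among the non-coding genes, HNRNPD-DT rose. It is transcribed away from HNRNPD, the gene of the AU-rich element binding protein AUF1, which controls the decay of many mRNAs. Its probe set 235607_at read 331, 338 and 338 in mutated cells, against 201, 202 and 208 in parental cells, a log2 change of 0.68 (SE, 0.045; Benjamini-Hochberg adjusted p = 5.9e-05 in limma). The lowest mutated value was well above the highest parental one. The brightest HNRNPD probe set, 221481_x_at, read 6837, 6802 and 6628 in mutated cells, against 6726, 7240 and 6637 in parental cells, and its log2 change was −0.023 (95% interval −0.15 to 0.11), with overlapping groups. Of the 7 tested HNRNPD probe sets 3 rose, with log2 changes of 0.33, 0.37 and 0.38, and 4 did not pass. HNRNPA3P1, a pseudogene of HNRNPA3, had 0.28 (adjusted p = 0.13), against 0.037 for HNRNPA3. Near-identical copies such as these can share signal on an array.

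Both promoters of the divergent pair are shown, since the transcripts start close together and only that of HNRNPD-DT rose by its brightest probe set. The HNRNPD-DT window is at chr4:82374318-82374617 on the plus strand and the HNRNPD window at chr4:82373942-82374241 on the minus strand of GRCh38.p14, from RefSeq, each 5′ to 3′ on its own strand, with motif matches in capitals.
HNRNPD-DT promoter: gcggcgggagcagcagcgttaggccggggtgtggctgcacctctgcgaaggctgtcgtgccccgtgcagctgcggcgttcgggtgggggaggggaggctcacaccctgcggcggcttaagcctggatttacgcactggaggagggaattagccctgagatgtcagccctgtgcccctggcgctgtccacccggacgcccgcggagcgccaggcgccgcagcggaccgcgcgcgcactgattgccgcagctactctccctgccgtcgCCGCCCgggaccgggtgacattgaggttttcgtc
HNRNPD promoter: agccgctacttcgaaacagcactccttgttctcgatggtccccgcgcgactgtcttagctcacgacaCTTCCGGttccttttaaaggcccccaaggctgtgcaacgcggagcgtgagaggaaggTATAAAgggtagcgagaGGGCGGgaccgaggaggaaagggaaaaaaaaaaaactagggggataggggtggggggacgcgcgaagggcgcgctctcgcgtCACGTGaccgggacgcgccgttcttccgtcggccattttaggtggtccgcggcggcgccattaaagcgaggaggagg
The starts lie 577 bases apart and the windows share 0 bases. The HNRNPD-DT window holds a GC box on the opposite strand and no match to the other 5 motifs. The HNRNPD window holds an ETS site on the opposite strand, a TATA box, a GC box and an E-box.

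**Figure D3:**
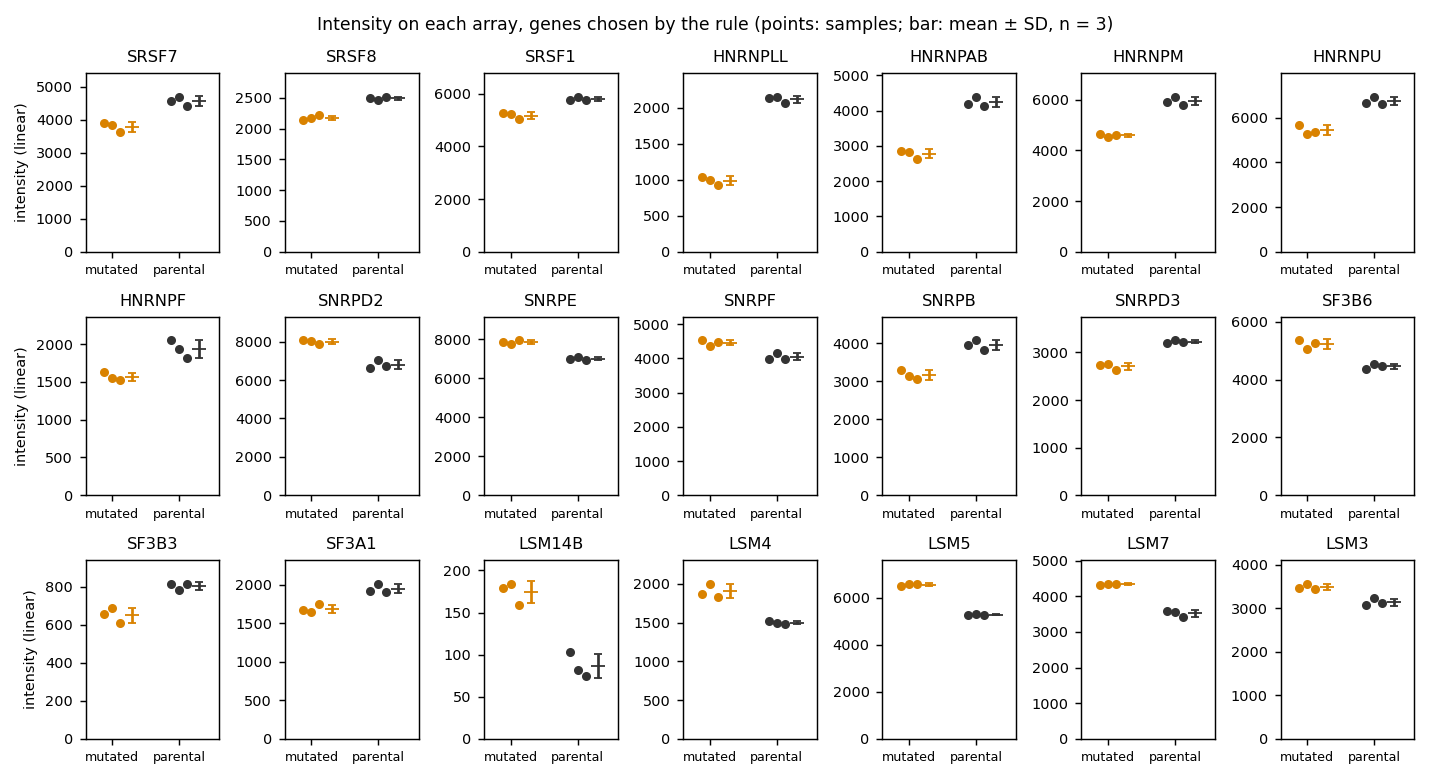
Intensity on a linear scale, from 0, of the brightest probe set of each of the 21 genes that the rule named for change, in each sample (points; bar, mean ± SD, n = 3), with mutated cells left of parental cells. In every panel the groups do not overlap, and the gap is widest relative to the level for HNRNPLL, HNRNPAB and LSM14B.

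Splicing factor genes often carried probe sets that did not move together. A probe set reads a short stretch of a transcript, and several of these genes make transcripts with alternative ends or with exons that lead to decay. Equal change across the probe sets of a gene was tested with limma's diffSplice F test, with Benjamini-Hochberg adjustment over the 6708 genes with at least 2 tested probe sets. Unequal change passed in 29 of 46 splicing factor genes (63.0%), against 44.3% of all such genes. The constant added to each intensity before the log shrinks the change of dim probe sets. A gene with equal fold change on bright and dim probe sets can therefore pass. HNRNPLL passed (diffSplice, adjusted p = 0.032), with mutated means 0.39 to 0.47 of the parental on its 4 probe sets. With a constant of 1, 26 of the 46 passed (56.5%), against 40.3% of all. With 64, 30 passed (65.2%), against 51.8% of all. How many of the 29 owe their pass to this constant was not tested. The 46 had 3.5 tested probe sets on average, against 2.86 over all 6708. With precision weights by brightness, an alternative chosen after the data were seen, 28 of the 46 passed (26 of them in both fits), against 47.7% of all. On probe sets with neither of those suffixes, 11 of 29 splicing factor genes passed (37.9%), against 44.4% of 3719 genes in all, so the higher share was not seen there. Without parental 2, 19 of the 46 passed (41.3%), against 35.9% of all. On simulated data this test made more false calls than its threshold allows, and fewer with the precision weights.

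In 5 genes (LSM14B, HNRNPR, SRSF1, SRSF3 and SRSF8) some probe sets rose while others fell, which is 10.9% of the 46, against 6.53% of all 6708. After quantile normalization 3 genes did (6.52%), against 7.71% of all. The range was widest in LSM14B (diffSplice, adjusted p = 3.7e-05), where 3 probe sets rose, 1 did not pass and the dimmest, 244488_at, fell. That probe set read 6.40, 18.6 and 11.8 in mutated cells, against 30.8, 23.6 and 33.4 in parental cells, a log2 change of −0.69 (adjusted p = 0.014). These intensities are among the low ones tested. HNRNPR, a relative of SYNCRIP that binds mRNA in nucleus and cytoplasm, had −0.10 (adjusted p = 0.12) on its brightest probe set and −0.27 (adjusted p = 0.018) on the next (diffSplice, adjusted p = 1.6e-06). The remaining one, 232004_at, read 301, 285 and 327 in mutated cells, against 185, 183 and 199 in parental cells, a log2 change of 0.64 (adjusted p = 0.00041). So the gene held a probe set that rose and one that fell, each without overlap of the groups.

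SRSF1 was the gene with most tested probe sets, 8 (diffSplice, adjusted p = 5.4e-06). Of these 4 fell, with log2 changes of −0.16, −0.24, −0.33 and −0.26, and 2 rose, with 0.24 and 0.42. The highest, 229246_at, read 165, 150.1 and 170.5 in mutated cells, against 118, 124 and 110.1 in parental cells. In SRSF3, the smallest SR protein, probe set 232392_at read 72.5, 90.5 and 80.9 in mutated cells, against 33.6, 52.1 and 58.9 in parental cells, a log2 change of 0.62 (adjusted p = 0.018), against −0.074 on the brightest (diffSplice, adjusted p = 0.00040). SR protein genes are known to carry a poison exon, whose inclusion sends the mRNA to decay. The files used here do not say which exon a probe set reads, so none of these values is tied to an isoform.

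SNRPB2 had 0.00062 on its brightest probe set, and its other one, 1561965_at, read 137, 141 and 130.0 in mutated cells, against 68.9, 78.3 and 83.8 in parental cells, a log2 change of 0.71 (adjusted p = 0.00038) (diffSplice, adjusted p = 6.1e-05). In SF3B1 the 2 brightest probe sets had 0.045 and 0.10, the next 2 had −0.33 and −0.33, all 4 without passing, and 229303_at rose, at 0.42 (adjusted p = 0.020). SRSF6 fell on 206108_s_at, at −0.67 (adjusted p = 0.00016), with 184, 165 and 176 in mutated cells, against 292, 285 and 284 in parental cells, against −0.12 on the brighter one (diffSplice, adjusted p = 0.00010). HNRNPM and HNRNPU each fell on 3 probe sets and had 2 that did not pass, up to 0.31 and 0.23. LSM11 rose on 1 of 4 probe sets, at 0.53 (adjusted p = 0.0015).

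Brightness went with direction inside the genes. In 35 of the 46 genes (76.1%) the dimmest tested probe set had a higher log2 change than the brightest, against 54.1% of all 6708 genes, and after quantile normalization in 63.0% against 49.7%. Of the 182 tested splicing factor probe sets, 110 lay in the top quartile of brightness, with a median log2 change of −0.055, 14 that rose and 25 that fell. The median was 0.13, 0.24 and 0.078 in the quartiles from dimmest upward. Over all tested probe sets the quartile medians were 0.040, 0.14, 0.091 and 0.019 from dimmest to brightest, and 27.9% rose and 21.9% fell in the brightest. The medians of all features were thus also lower in the top quartile than in the other 3. After quantile normalization the splicing factor medians were 0.056, 0.054, −0.043 and −0.070, against −0.030, −0.037, −0.018 and 0.00039 over all tested probe sets. A gene's call rests on its brightest probe set, and so on the upper end of this range. Over all 182 probe sets 34 rose and 36 fell, and without parental 1 the numbers were 21 and 27.

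**Figure D4:**
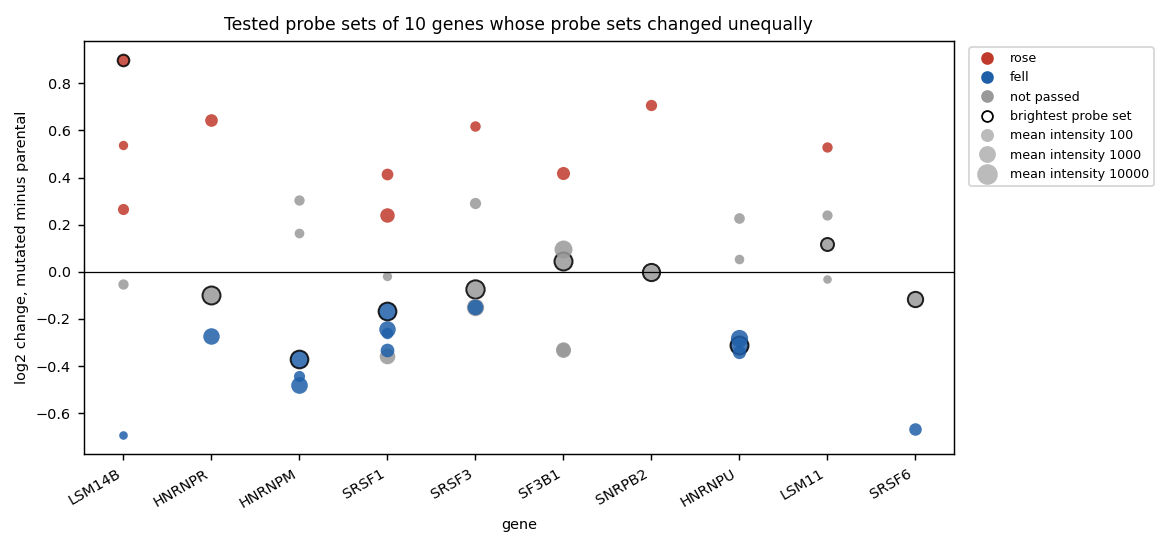
Log2 change (mutated minus parental) of every tested probe set of the 10 genes with the widest range among those that passed the test of unequal change; point size gives mean intensity, a ring marks the brightest probe set, and colour gives the call. In HNRNPR, SRSF1, SRSF3 and LSM14B points that rose and points that fell stand in the same column.

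The rest of the splicing machinery was read through 8 further lists of 173 genes, 152 of them tested. Of these 25 rose and 45 fell, 16.4% and 29.6%, against 30.1% and 18.9% of all tested genes. The count was 22 and 54 after quantile normalization and 15 and 68 after median centring. It was 39 and 40 when a gene's probe sets were averaged, and 25 and 22 when _s_at and _x_at probe sets were left out. Of these calls 49.4% and 53.2% were higher, against 64.3% and 63.8% of the calls over all tested genes. As deposited that part was 35.7%, against 61.5%. In U2 recruitment and branch point recognition, 7 of 16 tested genes fell and 0 rose, with 0 higher and 7 lower at an unadjusted p under 0.05. Among them SUGP1, which joins SF3B at the branch point, had a log2 change of −0.50 (SE, 0.058; Benjamini-Hochberg adjusted p = 0.00070 in limma) and DDX39A, a helicase of splicing and export, −0.32 (adjusted p = 0.0027). In SR-related proteins and the exon junction complex 8 of 20 fell and 1 rose. ACIN1 had −0.55 (adjusted p = 0.0014), SRRT −0.42 (adjusted p = 0.00064) and TRA2A, an SR-like activator of exons and the one that rose, 0.20 (adjusted p = 0.032). On its probe set without the suffix _s_at or _x_at SRRT had −0.11 (adjusted p = 0.53). TRA2A did not pass after median centring (adjusted p = 0.17) or with its probe sets averaged (adjusted p = 0.061). Without parental 2 the U2 recruitment count was 4, and without mutated 2 that of the SR-related list was 5.

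The kinases and phosphatases that load and unload SR proteins were divided, with 2 of 10 higher and 3 lower. These shares were 20% and 30%, against 30.1% and 18.9% of all tested genes. CLK3, a nuclear kinase of SR proteins, read 702, 629 and 674 in mutated cells, against 447, 413 and 424 in parental cells, a log2 change of 0.62 (SE, 0.061; Benjamini-Hochberg adjusted p = 0.00032 in limma). CLK1 had 0.24 (adjusted p = 0.015), and 0.16 after median centring, where it did not pass (adjusted p = 0.063). PPP1CA, a catalytic subunit of protein phosphatase 1, read 1172, 1129 and 1068 in mutated cells, against 1662, 1509 and 1527 in parental cells, a log2 change of −0.47 (SE, 0.062; Benjamini-Hochberg adjusted p = 0.0011 in limma), and the muscle-enriched kinase SRPK3 had −0.39 (adjusted p = 0.042). In the tri-snRNP and the snRNP proteins outside the symbol rule, 3 of 22 rose (13.6%) and 7 fell (31.8%). PPIH, a cyclophilin of the tri-snRNP, had 0.40 (adjusted p = 0.00049) and SNRNP48, of the minor spliceosome, 0.27 (adjusted p = 0.0081), against −0.44 (adjusted p = 0.00058) for DDX23 and −0.34 (adjusted p = 0.0079) for PRPF6. The other probe set of PRPF6 had −0.0028, and their average did not pass (−0.17, adjusted p = 0.063). Without parental 1 the number that fell in that list was 4, and that of the kinases and phosphatases was 1 without mutated 2, parental 2 or parental 3, while 1 of them rose without parental 1.

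Prp19 complex and catalytic-step genes rose in 7 of 25 cases and fell in 6. These shares, 28% and 24%, were near the 30.1% and 18.9% of all tested genes. PRPF19, the ubiquitin ligase that gives the complex its name, had −0.52 (adjusted p = 0.00029) and the helicase DHX38 −0.65 (adjusted p = 0.00075), while PPIE had 0.40 (adjusted p = 0.0027) and DHX8 0.32 (adjusted p = 0.0051), both with another probe set of the opposite sign. snRNP assembly genes rose in 3 of 17 cases (17.6%) and fell in 4 (23.5%). CLNS1A, which delivers Sm proteins for assembly, had 0.24 (adjusted p = 0.0077), GEMIN5, which recognises snRNA for the SMN complex, −0.29 (adjusted p = 0.0024), GEMIN8 0.66 (adjusted p = 0.0010) and NCBP1, of the cap-binding complex, −0.33 (adjusted p = 0.0031). GEMIN8 and NCBP1 also had a probe set of the opposite sign. The other 2 tested probe sets of GEMIN8 had −0.73 and 0.88, and the other 1 of NCBP1 had 0.22. When a gene's probe sets were averaged, DHX8 (0.13, adjusted p = 0.088) and NCBP1 (−0.056, adjusted p = 0.40) did not pass, and after median centring CLNS1A did not (0.16, adjusted p = 0.051). In nonsense-mediated decay 2 of 9 rose (22.2%) and 2 fell (22.2%). NBAS had 0.50 (adjusted p = 0.0014) and DHX34 0.33 (adjusted p = 0.012), against −0.36 (adjusted p = 0.018) for SMG5 and −0.28 (adjusted p = 0.030) for UPF1, the helicase at the centre of the pathway. The other 2 tested probe sets of DHX34 had −0.19 and −0.046, and its call was lost after quantile normalization (0.18, adjusted p = 0.091) and when its probe sets were averaged (0.031, adjusted p = 0.85). Without mutated 1 or parental 1, 4 Prp19 and catalytic-step genes rose. The assembly genes that fell numbered 2 without mutated 1, mutated 2, parental 1 or parental 3, and 5 of that list rose without mutated 3. The decay genes that fell numbered 0 or 1 in each fit that left out a sample.

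The other regulators of alternative splicing rose in 7 of 33 cases and fell in 8, and held the largest single change of all these lists. These shares were 21.2% and 24.2%, against 30.1% and 18.9% of all tested genes. RBFOX2, which binds UGCAUG near regulated exons, read 322, 321 and 305 in mutated cells, against 59.95, 34.3 and 36.1 in parental cells, a log2 change of 2.51 (SE, 0.16; Benjamini-Hochberg adjusted p = 4.5e-05 in limma). Its other 2 tested probe sets had log2 changes of 2.49 and 3.53. All 3 mutated samples stood several times above all 3 parental ones. MBNL2, a muscleblind regulator, had 0.48 (adjusted p = 0.00029), SFPQ, a nuclear speckle and paraspeckle protein, −0.37 (adjusted p = 0.0015) and SYNCRIP, the relative of HNRNPR, −0.40 (adjusted p = 0.0010). SFPQ and SYNCRIP each had at least 1 probe set of the opposite sign. The call of CLK1 was lost in 1 of the 6 fits that left out a sample (limma, adjusted p = 0.053). Those of SRPK3 and TRA2A were lost in 5 of these fits (limma, adjusted p up to 0.11 and 0.093). Those of SMG5 and UPF1 were lost in 4 (limma, adjusted p up to 0.058 and 0.092). SRPK3 was dim, with 26.6 to 45.1 in mutated cells and 49.0 to 53.7 in parental cells. The regulators that fell numbered 5 without mutated 2 or parental 3.

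**Figure D5:**
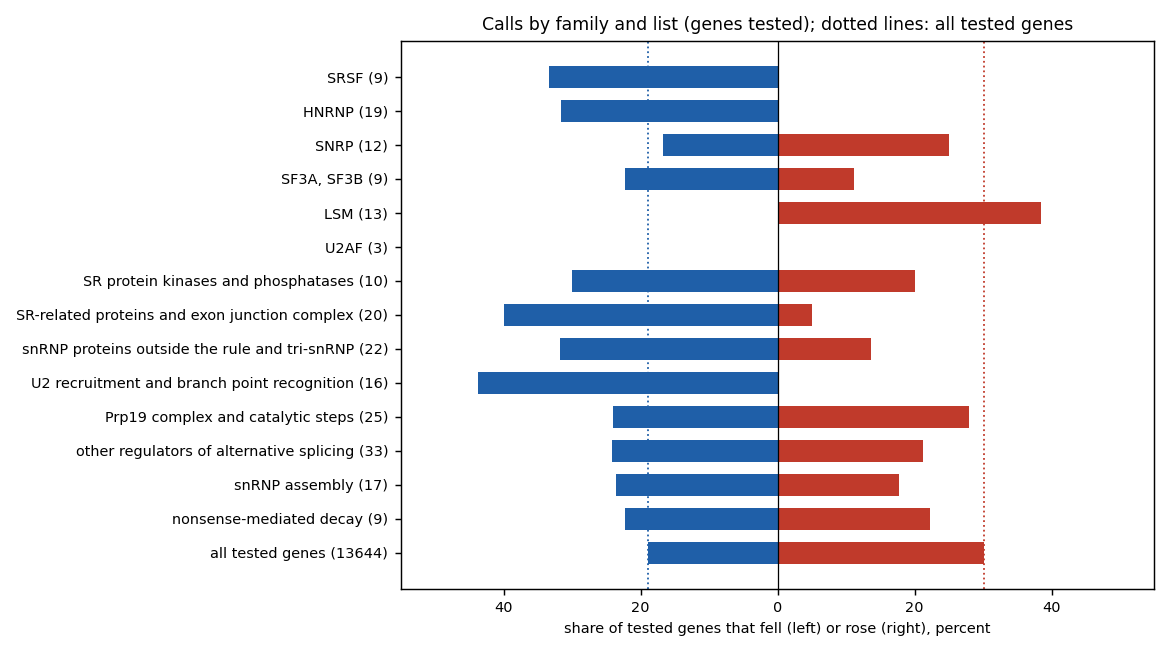
Share of tested genes that fell (left of 0) or rose (right of 0), in percent, for the 6 splicing factor families, the 8 further lists and all tested genes; the number tested stands in brackets and dotted lines give the shares over all tested genes, 18.9% and 30.1%. LSM is the one bar to the right of the 30.1% line, and U2 recruitment reaches furthest left, at 43.8%.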

How the data were processed

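RNA of 6 samples was labelled with biotin and hybridised to expression arrays, per the labels' protocols. For each probe set the deposited value is an intensity from the authors, on a linear scale. Nothing in the sources used here says how probes were summarised, background was corrected or arrays were scaled, and no detection calls were used. These deposited intensity values were transformed here as log2(intensity + 16), which understates the change of dim genes. Probe sets among the dimmest 40% by mean over the 6 samples were left out. The rest entered lmFit and eBayes of limma 3.58.1 (with statmod 1.5.0, in R 4.3.3) with a single term for group, two-sided tests, Benjamini-Hochberg adjustment over all 32768 and a threshold of 0.05. The same fit entered diffSplice. The 6 arrays limit the precision: the median SD of log2 values over the splicing factor genes was 0.044 in mutated and 0.039 in parental cells. No pair of arrays of a group held identical values. All 198 probe sets matched RefSeq by Entrez ID, with 0 symbols changed. Promoter windows came from RefSeq, with 62 of 69 genes matched. Figures were drawn with matplotlib 3.10.9 and pandas 2.3.3 in Python 3.11.15.

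The members, lists and tests were chosen with earlier results of these data known. Named genes were, per family, up to 5 that rose and 5 that fell with the largest change and groups that did not overlap; the 10 genes with the widest range among those past the test of unequal change; and up to 2 each way per further list. A gene named outside this rule was chosen after its values had been seen. Alternatives tried were quantile normalization, median centring, no filter, a filter on the dimmest 60%, array weights, eBayes with trend and robust estimation, a pseudocount of 1 or 64, the replicate number as a block, leaving out _s_at and _x_at probe sets, averaging a gene's probe sets, leaving out each sample, and precision weights. The scripts were tested on simulated data, where the test of unequal change made more false calls than its threshold allows, and fewer with precision weights. Same-numbered samples are not tied by the labels, so the main model has no block.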

Additional observations from a re-analysis of the deposited data

How the results depend on the processing

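Each alternative changed 1 choice, and where a value moved the cause was not tested. The scaling is not known, so the split of calls depends on it. After median centring 5 splicing factor genes rose and 23 fell, with 19 and 61 probe sets. By family, 6 SRSF and 10 HNRNP genes fell, 0 SNRP and 0 SF3 genes rose, and 2 LSM genes fell. Of the further lists, 1 kinase or phosphatase, 0 SR-related, 3 Prp19 or catalytic and 1 snRNP assembly gene rose, and 10 Prp19 or catalytic genes, 14 other regulators and 4 decay genes fell. The log2 change of SF3B1 turned to −0.034 and that of SNRPB2 to −0.079, neither of which passed in either setting. After quantile normalization 2 LSM genes fell, and 1 decay gene rose and 4 fell.

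With no filter, 0 SR-related and 4 Prp19 or catalytic genes rose, and 2 assembly and 1 decay gene fell. With the dimmest 60% left out, 2 LSM genes fell, 5 snRNP and tri-snRNP and 6 assembly genes rose, and 4 decay genes fell. The trend and robust options called more genes: 22 splicing factor genes fell, among them 5 SRSF, 10 HNRNP and 2 LSM genes, while 1 HNRNP, 5 SNRP and 2 SF3 genes rose. They also gave 5 snRNP and tri-snRNP and 7 assembly genes that rose, and 13 other regulators that fell. Assembly genes that rose numbered 5 with array weights and 6 with a pseudocount of 64. With array weights SNRPB2 turned to −0.0037.

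Without _s_at and _x_at probe sets fewer are tested: 7 genes and 13 probe sets fell, and 11 genes changed unequally. By family, 1 SRSF, 2 HNRNP, 1 SNRP, 2 SF3 and 2 LSM genes rose, and 1 SRSF, 3 HNRNP and 1 SF3 gene fell. In the further lists, 1 kinase or phosphatase, 3 SR-related, 1 snRNP or tri-snRNP, 2 U2 recruitment and 1 decay gene fell, and 5 SR-related, 4 Prp19 or catalytic and 1 decay gene rose. The sign turned for HNRNPR (0.64, which rose), SF3B3 (0.18), SFPQ (0.11), NCBP1 (0.22), SNRPE (−0.037) and SRSF3 (0.29), of which the last 5 did not pass. With a gene's probe sets averaged, 1 SRSF and 1 HNRNP gene rose, as did 4 kinases and phosphatases, 4 SR-related, 5 snRNP and tri-snRNP, 4 U2 recruitment, 5 assembly and 1 decay gene, while 3 snRNP and tri-snRNP and 4 decay genes fell. HNRNPR (0.091), SF3B1 (−0.019) and SRSF3 (0.11) turned in sign without passing.

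When each sample was left out in turn, SNRP genes that rose numbered 1 to 2, SF3 genes that rose 1 to 2 and that fell 1 to 3, splicing factor probe sets that rose 21 to 35, and genes that changed unequally 19 to 24. In the further lists the ranges of genes that fell were 1 to 2 for kinases and phosphatases, 5 to 8 for SR-related, 4 to 6 for snRNP and tri-snRNP, 4 to 7 for U2 recruitment, 5 to 7 for other regulators, 2 to 4 for assembly and 0 to 1 for decay. Those of genes that rose were 1 to 2 for kinases and phosphatases, 0 to 1 for SR-related, 4 to 5 for Prp19 or catalytic and 3 to 5 for assembly. SNRPB2 ranged from −0.0076 to 0.010, without passing.

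The replicate numbers were not shown to pair samples: deviations of same-numbered samples correlated at 0.11, 0.027 and 0.11, although each sample correlated best with its own number. With the replicate block 7 splicing factor genes rose and 12 fell, 1 SNRP gene rose, and the calls of LSM3, SNRPE, SNRPF and SRSF1 had adjusted p (limma) of 0.064, 0.053, 0.097 and 0.057. HNRNPLL, HNRNPAB, HNRNPF, SNRPD3, LSM4, LSM7 and LSM14B kept direction and call under every alternative that could be run for them. With 3 samples a group, unknown normalization and low signal near the filter, small changes and dim probe sets are the least certain.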
